A study of Homo sapiens with 4 samples.

Results

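The amino acid response gene set examined here comprised 51 listed genes: the transcription factor ATF4, its partner factors and genes that ATF4 is known to induce. Messenger levels were read on Affymetrix arrays from MKN45, an adenocarcinoma line of human gastric epithelium. There were 2 arrays of cells given medium with 10 µg/ml lipopolysaccharide (LPS) of the stomach bacterium Helicobacter pylori, a glycolipid from its outer membrane, and 2 arrays of cells given fresh medium alone. RNA was taken 8 h later in both groups, and the series text speaks of 2 independent experiments. All 4 arrays came from 1 cell line. The genes were chosen by symbol, and for each the brightest probe set by mean over the 4 arrays was taken, among those assigned to that symbol alone. This gave 49 of 19775 genes named on the array. No probe set of GPT2 was named in the annotation used, and the 3 probe sets of MARS1 also carry the symbol of a microRNA gene, so neither gene was counted. A filter on low values kept probe sets with a mean of at least 6.06 on the log2 scale, the 30 percentile of all probe sets. It left 47 of the 49 genes among 16252 tested. VLDLR and ALDH1L2 lay under it.

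ATF4 sits at the end of the integrated stress response. Kinases that sense amino acid shortage, unfolded proteins, double-stranded RNA or haem shortage phosphorylate the initiation factor eIF2, which slows general translation while the ATF4 messenger is translated more. ATF4 then induces genes for amino acid uptake, serine synthesis, folate-dependent carbon transfer and the loading of tRNAs, along with factors that end or redirect the response. Much of the control of ATF4 itself is at translation, which arrays of messenger levels do not measure.

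The DNA element to which ATF4 binds with a C/EBP partner has the core TGATGNAA. It was looked for on both strands of promoter windows from the RefSeq table of GRCh38.p14, which run from 250 bases before to 50 bases after a gene's start. A window was at hand for 41 of the 51 genes, some of which have several starts. The core stood in a window of 16 of the 41 genes (39.0%), against 4.46% of all 27305 genes with a window. Counted by window it was 16 of 62, against 3.62% of all windows. The list holds genes already known as ATF4 targets, so this share is no independent evidence. The core's variant TGATGCAA stood in 11 of the 41 genes, against 1.08% of all genes. The cyclic AMP element TGACGTCA, which overlaps neither, stood in 1 of the 41, PPP1R15A, against 2.25% of all genes. The following stretches are shown because these genes carry the core and stand among the uptake, tRNA loading and stress genes whose values follow. Each is written 5′ to 3′ on the strand that reads the core, which is in capitals, with its coordinates in GRCh38.p14.
SLC1A5, chr19:46784894-46784921, minus strand: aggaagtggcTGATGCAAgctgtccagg
SLC3A2, chr11:62881726-62881748, minus strand: ggagcTGATGTAAggagtcctgc
SLC7A1, chr13:29595664-29595691, minus strand: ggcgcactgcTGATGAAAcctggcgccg
NARS1, chr18:57621805-57621832, minus strand: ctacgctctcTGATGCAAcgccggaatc
AARS1, chr16:70289676-70289703, plus strand: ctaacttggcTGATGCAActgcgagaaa
TARS1, chr5:33440957-33440984, minus strand: ctggaccagcTGATGCAAtcgaaaggcg
ASNS, chr7:97872459-97872486, minus strand: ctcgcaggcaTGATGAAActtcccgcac
CHAC1, chr15:40953252-40953279, minus strand: ctggcaggagTGATGCAAcggcagggga
CEBPG, chr19:33374061-33374088, plus strand: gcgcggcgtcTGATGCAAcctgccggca
ATF3, chr1:212565206-212565233, plus strand: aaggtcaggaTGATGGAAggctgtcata

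The core lay 68 bases before the start in ASNS, 209 bases before it in CHAC1 and 97 bases before it in the SLC1A5 window that held it. The windows of SLC7A5 and DDIT4 did not hold these letters. A match in a window is a description of the sequence and not a binding measurement. The 16 genes with the core were AARS1, ASNS, ATF3, CARS1, CEBPG, CHAC1, FGF21, GARS1, IARS1, JDP2, MARS1, NARS1, SLC1A5, SLC3A2, SLC7A1 and TARS1.

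LPS treatment for 8 h was not accompanied by a change of the amino acid response genes that passed the test. In the limma test, with Benjamini-Hochberg adjustment over 16252 genes and an adjusted p under 0.05 as the threshold, 0 of 47 members passed, against 0.0615% of all genes (0.0308% in each direction). Without adjustment, which is called the nominal p from here on, 10 members had a p under 0.05 (21.3%), against 14.3% of all genes. Of these, 6 lay higher with LPS and 4 lower, 12.8% and 8.51% of the 47, against 4.68% and 9.63% of all genes in the same directions. The 6 were the amino acid transporters SLC7A5 and SLC1A5, the growth regulator DDIT4, the eIF2 phosphatase subunit PPP1R15A, the transsulfuration enzyme CBS and the stress cytokine GDF15. The 4 were the cofactor NUPR1, the amino acid transporter SLC38A2, the asparagine tRNA synthetase NARS1 and the cysteine-producing enzyme CTH. The count of 10 ran from 7 to 12 under the alternative fits that kept all 4 arrays. In such whole-culture RNA, fewer cells with a transcript and less of it per cell cannot be told apart.

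Differences are LPS minus untreated on the log2 scale. Their median was 0.0028 over the 47 members and -0.0047 over all genes. The median size of a difference, whatever its sign, was 0.08 in both. It was under 0.2 for 42 of the 47 (89.4%), against 89.3% of all genes. On the brightest probe sets, no 95% interval of a member reached above 1.455-fold or under 0.748-fold. These bounds do not cover other probe sets. Those of KLHL24 lay lower, at 0.617-fold for the brightest of these. Other probe sets of STC2, SLC7A1 and LARS1 reached 1.31-fold, 0.785-fold and 0.823-fold, further from no change than their brightest ones. The groups of arrays did not overlap for 24 members. Both LPS arrays lay above both untreated arrays for 11 of them, against 19.7% of all genes, and below for 13, against 25.7% of all genes.

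**Figure D1:**
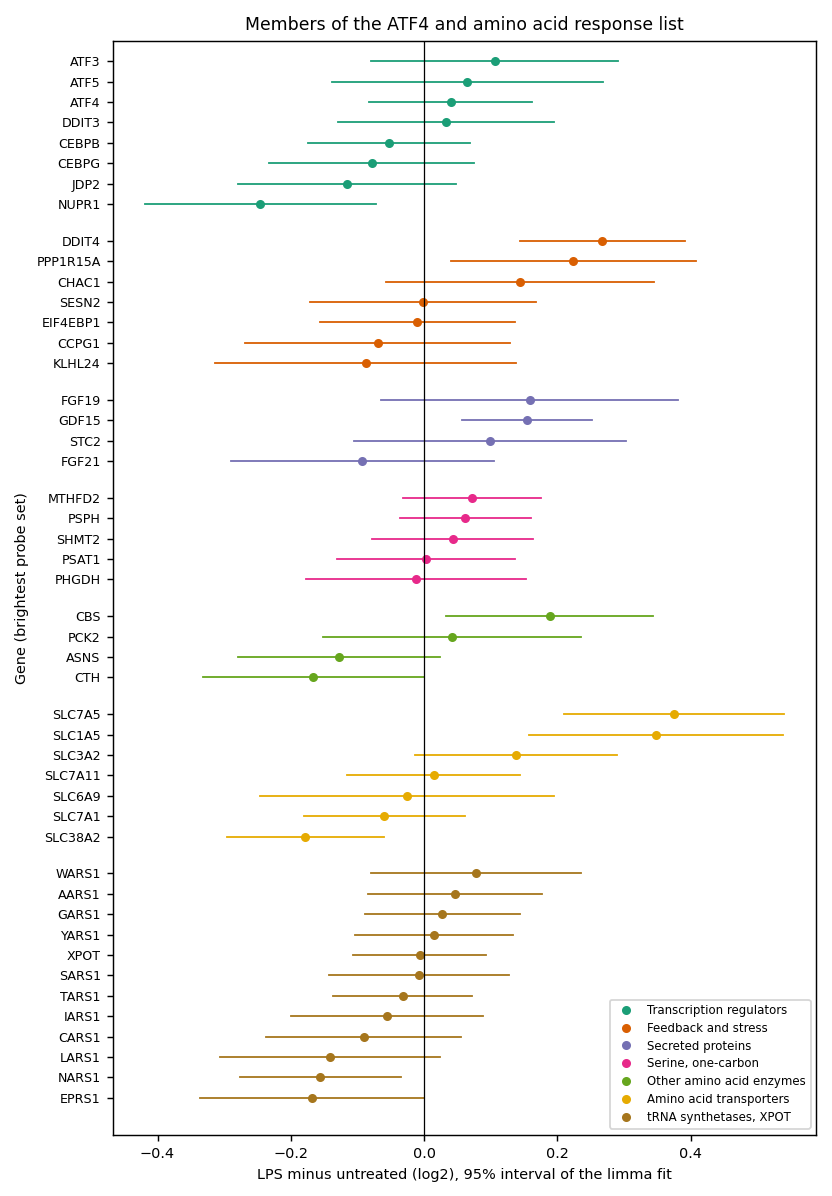
Difference between LPS-treated and untreated cells (log2, horizontal axis) for each of the 47 members tested, grouped by role, where points are fitted differences and lines their 95% intervals. SLC7A5 at 0.38 and SLC1A5 at 0.35 lie furthest right and NUPR1 at -0.25 furthest left, while the serine group lies between -0.01 and 0.07 and the tRNA synthetase group between -0.17 and 0.08.

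The same arrays recorded other responses. Over all genes 10 passed in limma, 5 higher and 5 lower, and the higher ones included the chemokines CCL20, CXCL1, CXCL8 and CXCL3, with differences of 2.93, 1.99, 1.73 and 1.02. The count over all genes was 5 without LPS replicate 1, 4 without LPS replicate 2, 6 without untreated replicate 1 and 19 without untreated replicate 2. Median centring of the arrays gave 19 higher and 80 lower. Array medians differed by 0.01 between the groups, and any pair of arrays correlated at 0.996 to 0.998 across probe sets, which are not independent replicates. Poly-A spike-ins, bacterial transcripts added before labelling, averaged 7.98 and 7.92 on the LPS arrays and 8.60 and 8.25 on the untreated arrays, and control probe sets at the 3′ end of ACTB minus those at its 5′ end gave 0.39 and 0.63 on the LPS arrays and 0.64 and 0.86 on the untreated arrays. The part of either in the results was not tested. Of 13 gastric and epithelial markers, 12 lay above the level filter, as did 8 of 10 leukocyte and 9 of 11 fibroblast and endothelial markers, so passing the filter does not single out a cell type. The median level of the gastric and epithelial markers was 11.66 on both LPS arrays and 11.92 and 11.83 on the untreated arrays. It was 7.12 and 7.05 on the LPS arrays and 6.89 and 7.04 on the untreated arrays for the leukocyte markers. For the fibroblast and endothelial markers it was 7.10 and 7.14 on the LPS arrays and 7.23 and 7.17 on the untreated arrays. On every array the gastric and epithelial median was the value of GATA6, and the fibroblast and endothelial median that of LUM. In the order given, the tested markers of these lists had median differences of 0.01, 0.04 and 0.02. Differences above and below 0 numbered 6 and 6, 6 and 2, and 6 and 3. The part of these markers in the results was not tested. No more than the spread between these arrays is measured by the p-values, and the number of arrays limits the precision.

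**Figure D2:**
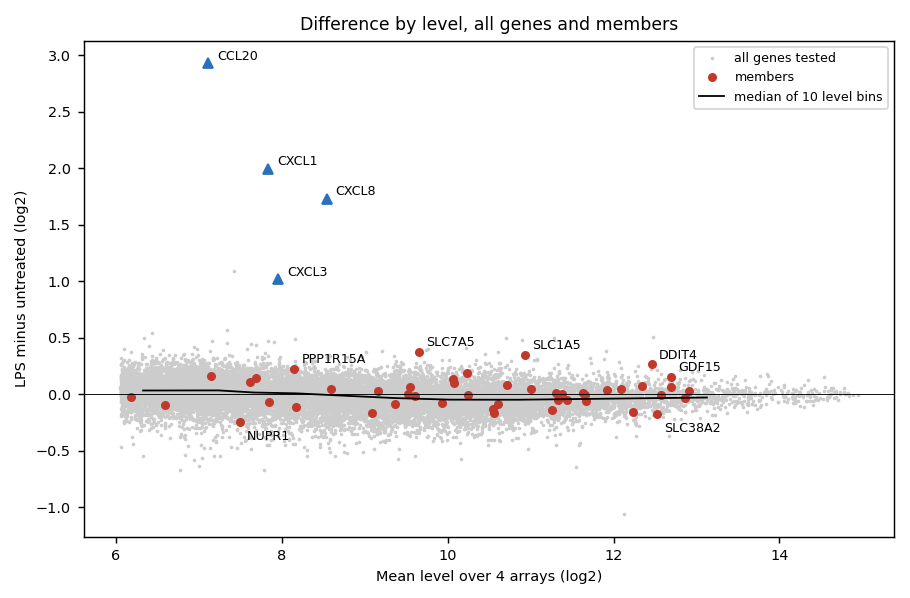
Difference between LPS-treated and untreated cells (log2, vertical axis) against the mean level over 4 arrays (log2, horizontal axis) for 16252 genes in grey, the 47 members in red and 4 chemokines as triangles. The members lie within the cloud of all genes while CCL20, at 2.93, stands far above it, and the black line joins the median difference of 10 level bins.

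The amino acid response genes were measured at high levels in MKN45 cells in both groups. The median of the 47 members was 10.49 in LPS-treated and 10.64 in untreated cells, against 8.45 and 8.47 over all genes. The LPS median was the value of ASNS and the untreated median that of EPRS1, so their gap is not the change of a gene. The median difference of the members was 0.0028. When all genes were divided into 10 bins of equal size by level, 18 members fell in the brightest bin and 30 in the brightest 3. The median difference of all genes in those 3 bins was -0.05, -0.05 and -0.03. A probe set's level depends on its probes, so these levels do not rank the genes by transcript number.

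Among the transcription regulators, 0 of 8 passed, with 0 higher and 1 lower at a nominal p under 0.05 and a median difference of -0.0098. For this role and those that follow, the nominal shares over all genes were 4.68% higher and 9.63% lower. ATF4, the central factor, stood at 11.95 and 11.94 on the LPS arrays, against 11.96 and 11.85 on the untreated arrays. The groups overlapped, and the difference was 0.04 with a 95% interval of -0.08 to 0.16. Its level lay at the 97.1 percentile of all probe sets in untreated cells. DDIT3, the CHOP factor linked to stress-induced cell death, had values of 9.19 and 9.17 with LPS, against 9.18 and 9.12 in untreated cells. The groups overlapped and the interval of its difference was -0.13 to 0.20.

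ATF3, a stress-induced repressor and activator, stood at 7.63 and 7.72 on the LPS arrays, against 7.51 and 7.63 on the untreated arrays. Its difference of 0.11 did not pass (limma adjusted p = 0.592), and the other 2 ATF3 probe sets differed by 0.23 and 0.18, each with both LPS arrays above both untreated arrays. NUPR1, a small chromatin-associated stress cofactor, stood at 7.34 and 7.40 on the LPS arrays, against 7.59 and 7.64 on the untreated arrays. Both LPS arrays lay below both untreated arrays, by 0.844-fold (interval 0.748 to 0.951, limma adjusted p = 0.229). JDP2, CEBPG and CEBPB, bZIP factors that pair with or oppose ATF4, had both LPS arrays below both untreated arrays, with differences of -0.12, -0.08 and -0.05 (limma adjusted p from 0.499 to 0.701). Over all genes 25.7% lay below in this way. The groups overlapped on the other CEBPG probe set, at -0.03. The other JDP2 probe set, under the level filter, lay lower by -0.04. ATF5, an ATF4-related factor, differed by 0.07, and its other 3 probe sets lay between -0.19 and 0.04.

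Of the feedback and stress targets, 0 of 7 tested passed, with 2 higher and 0 lower at a nominal p under 0.05. DDIT4, whose product REDD1 restrains the growth kinase complex mTORC1, stood at 12.66 and 12.53 with LPS, against 12.29 and 12.37 in untreated cells. Both LPS arrays lay above both untreated arrays, a difference of 0.27 or 1.20-fold (interval 1.10 to 1.31), and the limma adjusted p was 0.121. PPP1R15A, also called GADD34, directs the phosphatase that reverses eIF2 phosphorylation. It stood at 8.23 and 8.29 on the LPS arrays, against 7.96 and 8.11 on the untreated arrays, a difference of 0.22 (limma adjusted p = 0.278), and 0.08 on its other probe set. CHAC1, an enzyme that degrades glutathione and a sensitive target of ATF4, stood at 7.79 and 7.74 on the LPS arrays, against 7.73 and 7.52 on the untreated arrays. Its groups did not overlap, but the untreated arrays lay further apart (SD 0.15) than the difference of 0.14 (limma adjusted p = 0.491).

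TRIB3, a pseudokinase induced by ATF4 that in turn binds it, was set beside the members from the list of eIF2 regulators. It stood at 8.73 and 8.84 on the LPS arrays, against 8.72 and 8.58 on the untreated arrays, and the difference of 0.13 did not pass (limma adjusted p = 0.493). SESN2, which links leucine shortage to mTORC1, and EIF4EBP1, a translation repressor under mTORC1, differed by -0.0018 and -0.01. CCPG1, a receptor for selective autophagy of the endoplasmic reticulum, differed by -0.07. VLDLR, a lipoprotein receptor, lay under the level filter at 5.30 in LPS-treated and 5.10 in untreated cells and was not tested.

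KLHL24, which encodes a substrate adaptor of a ubiquitin ligase, gave different values on different probe sets. Its brightest one, an _x_at probe set of the type that can bind several transcripts, stood at 9.22 and 9.43 with LPS, against 9.30 and 9.53 in untreated cells, and differed by -0.09 with overlapping groups. All 4 of its other probe sets had both LPS arrays below both untreated arrays, with differences from -0.70 to -0.46, and 2 of these lay above the level filter. The brightest of these 4 stood at 7.37 and 7.42 on the LPS arrays, against 8.08 and 8.10 on the untreated arrays. Its difference of -0.70 did not pass over 38229 probe sets (limma adjusted p = 0.101). The same probe set did pass in the fit over genes represented without the cross-hybridising _x_at and _s_at probe sets (limma adjusted p = 0.0169). Those fits differ in the features tested and in the estimate of the spread.

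**Figure D3:**
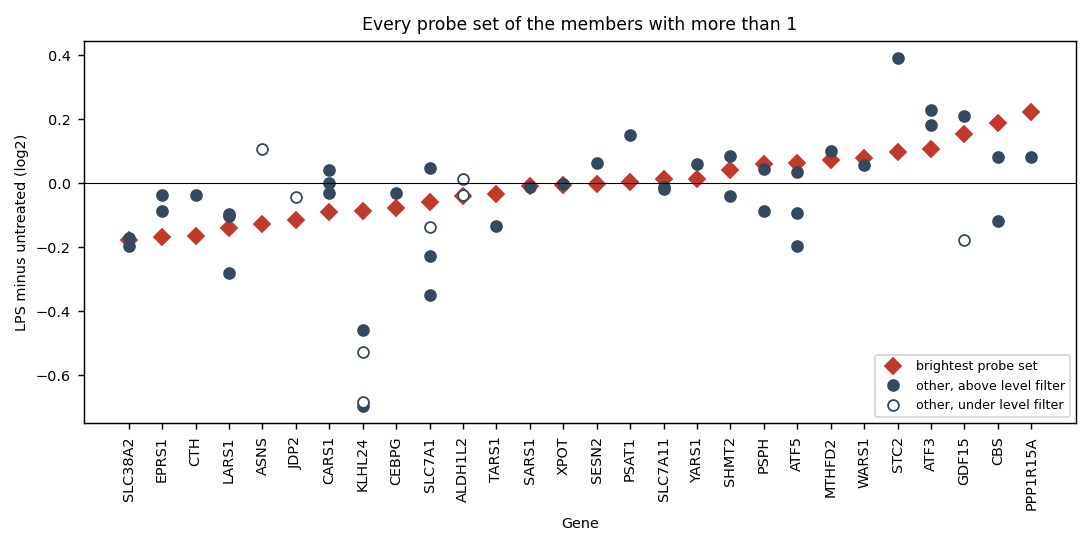
Difference between LPS-treated and untreated cells (log2, vertical axis) for every probe set of the 28 members with more than 1, ordered by the difference of the brightest probe set (diamonds). Circles are the other probe sets, filled where they lie above the level filter, and the 4 other probe sets of KLHL24 lie between -0.70 and -0.46 while its diamond lies at -0.09.

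The members had 98 probe sets in all. Of 41 other probe sets above the filter, belonging to 25 members, 30 had the sign of the brightest one. STC2, a secreted glycoprotein induced by stress, differed by 0.10 on its brightest probe set and by 0.39 on the other, which stood at 8.95 and 9.00 with LPS, against 8.62 and 8.55 in untreated cells. SLC7A1, a transporter of cationic amino acids, differed by -0.06 on the brightest of its probe sets, and 3 others above the filter differed by -0.35, -0.23 and 0.05. In the fit over all 38229 probe sets, 0 of 88 member probe sets passed in limma, against 0.00785% of all probe sets.

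The secreted proteins had 0 of 4 members past the threshold, 1 higher and 0 lower at a nominal p under 0.05, and a median difference of 0.13, which was 0.067 without untreated replicate 2. GDF15, a cytokine that acts on a hindbrain receptor to lower food intake, stood at 12.73 and 12.79 on the LPS arrays, against 12.60 and 12.62 on the untreated arrays. Both LPS arrays were higher, by 1.11-fold (interval 1.04 to 1.19, limma adjusted p = 0.2). This GDF15 probe set is also of the _x_at type. The other GDF15 probe sets differed by 0.21 and, under the level filter, by -0.18. FGF19, an endocrine factor of bile acid control, stood at 7.32 and 7.15 on the LPS arrays, against 6.97 and 7.17 on the untreated arrays. FGF21, an endocrine factor of fasting and stress, stood at 6.51 and 6.58 on the LPS arrays, against 6.70 and 6.57 on the untreated arrays. Groups overlapped for both, with differences of 0.16 and -0.09.

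On their brightest probe sets, enzymes of serine synthesis and the mitochondrial folate enzymes that use serine lay close to 0 in their differences. None of 5 tested members passed in limma or had a nominal p under 0.05, and differences ran from -0.01 to 0.07. Other probe sets above the filter differed by 0.15 for PSAT1 and 0.10 for MTHFD2. Those of PSPH differed by 0.05 and -0.09, and those of SHMT2 by 0.08 and -0.04. PHGDH, which opens the serine pathway, stood at 9.55 and 9.65 with LPS, against 9.61 and 9.61 in untreated cells. PSAT1, the next enzyme, stood at 11.42 and 11.33 on the LPS arrays, against 11.40 and 11.35 on the untreated arrays. The groups overlapped for both enzymes, and the intervals were -0.18 to 0.15 for PHGDH and -0.13 to 0.14 for PSAT1. The sign of either difference turned under other scalings or with an array left out. MTHFD2, the mitochondrial folate dehydrogenase, stood at 12.35 and 12.40 on the LPS arrays and 12.30 on each untreated array. Its groups did not overlap, and the difference was 0.07 (limma adjusted p = 0.51). PSPH, the last serine enzyme, and SHMT2, which turns serine into glycine in mitochondria, differed by 0.06 and 0.04. ALDH1L2, a mitochondrial dehydrogenase of formyl folate, lay under the level filter at 5.13 in LPS-treated and 5.17 in untreated cells.

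Among other amino acid enzymes, 0 of 4 passed, with 1 higher and 1 lower at a nominal p under 0.05. ASNS, the asparagine synthetase and a classical target of the response, stood at 10.47 and 10.51 with LPS, against 10.67 and 10.56 in untreated cells. Both LPS arrays were lower, and the difference of -0.13 had an interval of -0.28 to 0.02 (limma adjusted p = 0.421). The transsulfuration enzymes lay on opposite sides of 0. CBS, the first of them, stood at 10.27 and 10.37 on the LPS arrays, against 10.13 and 10.14 on the untreated arrays, a difference of 0.19 (limma adjusted p = 0.278), with 0.08 and -0.12 on its other 2 probe sets. CTH, which follows it, stood at 9.00 and 9.02 on the LPS arrays, against 9.22 and 9.14 on the untreated arrays, a difference of -0.17 (limma adjusted p = 0.347), and -0.04 on its other probe set. Whether the 2 enzymes differed from each other was not tested. PCK2, the mitochondrial phosphoenolpyruvate carboxykinase, differed by 0.04.

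On the brightest probe sets, the amino acid transporters held the 2 members with the highest differences, and also the member with the lowest after NUPR1. None of 7 passed in limma, while 2 were higher and 1 lower at a nominal p under 0.05, and their differences ran from -0.18 to 0.38 with a median of 0.01. SLC7A5, the LAT1 carrier of leucine and other large neutral amino acids, stood at 9.81 and 9.87 on the LPS arrays, against 9.51 and 9.42 on the untreated arrays. Both LPS arrays lay above both untreated arrays, a difference of 0.38 or 1.30-fold (interval 1.16 to 1.45). The limma adjusted p was 0.108, and after quantile normalization or cyclic loess the difference was 0.43 or 0.42 and passed (adjusted p = 0.0465 and 0.0407).

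SLC3A2, the glycoprotein partner that carries SLC7A5 and SLC7A11 to the cell surface, stood at 10.11 and 10.17 with LPS, against 10.00 on each untreated array. Its groups did not overlap, and the difference was 0.14 (interval -0.01 to 0.29, limma adjusted p = 0.39). SLC7A11, the cystine and glutamate exchanger that uses the same partner, stood at 11.34 and 11.29 on the LPS arrays, against 11.28 and 11.32 on the untreated arrays. Those groups overlapped, with a difference of 0.01 (interval -0.12 to 0.14), whose sign turned with the scaling, the choice of probe set or an array left out.

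SLC1A5, the ASCT2 glutamine transporter, stood at 10.99 and 11.23 on the LPS arrays, against 10.72 and 10.81 on the untreated arrays. Both LPS arrays were higher, by 0.35 or 1.27-fold (interval 1.12 to 1.45, limma adjusted p = 0.16), and the LPS arrays lay further apart (SD 0.17) than the untreated ones (SD 0.07). SLC38A2, the SNAT2 carrier of small neutral amino acids, stood at 12.38 and 12.49 on the LPS arrays, against 12.66 and 12.57 on the untreated arrays. Both LPS arrays were lower on all 3 of its probe sets, with differences of -0.18, -0.20 and -0.17 (limma adjusted p = 0.209 for the brightest). SLC6A9, a glycine transporter, lay just above the level filter and differed by -0.03.

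**Figure D4:**
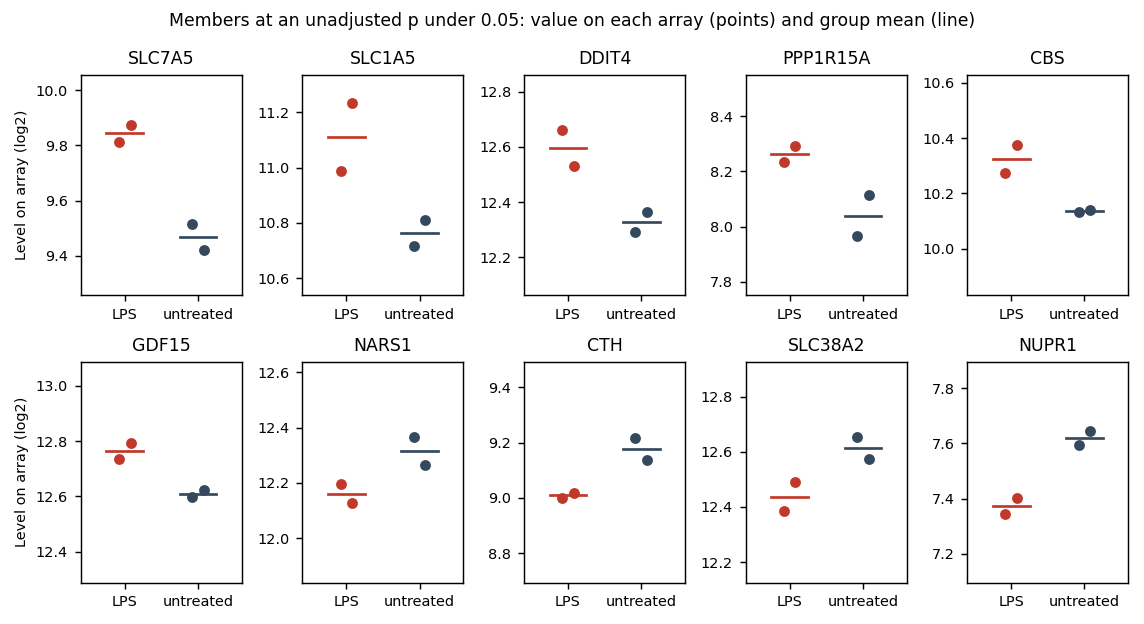
Level on each array (log2, vertical axis, a window of the same height in every panel) for the 10 members at a nominal p under 0.05, with LPS arrays in red on the left and untreated arrays in dark blue on the right. Points are arrays and lines group means, and in every panel the arrays of the groups do not overlap, from SLC7A5 with a difference of 0.38 to NUPR1 with -0.25.

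The cytosolic tRNA synthetases, which load amino acids onto tRNAs, together with the tRNA exporter XPOT, had 0 of 12 members past the threshold. At a nominal p under 0.05, 0 were higher and 1 lower, and 4 differences were above 0 and 8 below. NARS1, the asparagine enzyme, stood at 12.20 and 12.13 on the LPS arrays, against 12.37 and 12.27 on the untreated arrays. Both LPS arrays were lower, by 0.898-fold (interval 0.826 to 0.976, limma adjusted p = 0.256). EPRS1, the enzyme for glutamate and proline, stood at 10.54 and 10.40 on the LPS arrays, against 10.69 and 10.59 on the untreated arrays, and its difference of -0.17 had an adjusted p of 0.35 in limma. Its other 2 probe sets differed by -0.04 and -0.09, with overlapping groups. WARS1, the tryptophan enzyme, had the highest difference, 0.08, from 10.68 and 10.82 with LPS and 10.65 and 10.70 in untreated cells, with overlapping groups.

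LARS1, the leucine enzyme, had differences from -0.28 to -0.10 on its 4 probe sets, and none passed in limma. Both LPS arrays lay below both untreated arrays on 2 of the 4, the brightest among them, and the groups overlapped on the other 2. CARS1, IARS1, TARS1 and SARS1, for cysteine, isoleucine, threonine and serine, differed by -0.09, -0.06, -0.03 and -0.0071. The other CARS1 probe sets lay between -0.03 and 0.04. AARS1, GARS1 and YARS1, for alanine, glycine and tyrosine, differed by 0.05, 0.03 and 0.01, and XPOT by -0.0067. The 3 probe sets shared by MARS1, the methionine enzyme, and a microRNA gene differed by 0.15, 0.10 and -0.02 and were left out of these counts.

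The differences were also laid out by the promoter element described above, as a description with no test. The 15 tested members with the core had a median difference of -0.06 and a range of -0.16 to 0.35, and 2 of them, SLC1A5 and NARS1, had a nominal p under 0.05 in opposite directions. The 24 tested members with a window but without the core had a median of 0.02 and a range of -0.18 to 0.38. Of these, 7 had a nominal p under 0.05. The share over all genes was 14.3%, and whether members with and without the core differed was not tested.

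Related genes outside the set were counted in the same limma fit, and 0 passed in each of 6 lists. Over all genes, 0.0615% passed, and 4.68% were higher and 9.63% lower at a nominal p under 0.05. Of 17 kinases, eIF2 and eIF2B subunits and partners, 0 were higher and 1 lower at a nominal p under 0.05, with a median of -0.02. Of 20 genes of amino acid sensing by mTORC1, 2 were higher and 4 lower, with a median of -0.04. Of 25 other amino acid transporters, 1 was higher and 3 lower, with a median of -0.03, and SLC7A7, a basolateral exporter of cationic amino acids, had the smallest p with a difference of -0.21 (limma adjusted p = 0.22). Of 7 other cytosolic synthetases and their scaffold proteins, 2 were higher and 0 lower. Of 15 mitochondrial synthetases, 0 were higher and 1 lower, and of 12 other serine and folate enzymes, 0 were higher and 0 lower.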

How the data were processed

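The deposited values were levels of 54675 probe sets on 2 LPS and 2 untreated arrays, on the log2 scale as judged from their range. Per the submitters' processing notes the authors used MAS5 and RMA, with versions and the tool behind these values not given in the sources used here. Ranked from lowest to highest, the deposited log2 values of any pair of arrays lay within 0.0977 of each other at every rank. They were therefore already normalized between arrays, which would hide a shift of all transcripts. The 62 control probe sets were left out. Symbols came from the platform annotation (41091 probe sets with a single symbol) and matched the RefSeq gene table of GRCh38.p14 by Entrez identifier for 41037.

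The comparison used limma 3.58.1 in R 4.3.3 (lmFit, eBayes with an intensity trend, two-sided, no replicate block) on 1 probe set per gene. The fit ran over all 16252 genes and had 9.19 degrees of freedom in total. It was tested on simulated data. Alternatives were other filters (none, 50 percentile), scalings, variance models, probe set choices, the replicate number as a block and each array left out. Estimating the spread over all probe sets was added after seeing the data.

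The members and lists were chosen with earlier results of these data known. Values by array were given for 11 genes named in advance (ATF4, ATF3, DDIT3, ASNS, CHAC1, TRIB3, SLC7A5, SLC3A2, SLC7A11, PHGDH and PSAT1), for members at a nominal (unadjusted) p under 0.05, and for the highest and lowest difference of each of 7 roles. Other probe sets of STC2, KLHL24, SLC7A1, ATF3, LARS1, GDF15, PSAT1, MTHFD2, PSPH and SHMT2 were described after their values were seen. The same holds for those of ATF5, PPP1R15A, CBS, CTH, SLC38A2, CEBPG, JDP2, EPRS1 and CARS1.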

Additional observations from a re-analysis of the deposited data

How the results depend on the processing

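The number of members past the threshold was 0 in the reported fit and with each array left out (0 to 0). It was 1 after quantile normalization and 1 after cyclic loess (SLC7A5, at 0.43 and 0.42), and 1 without _x_at and _s_at probe sets (KLHL24, at -0.70). With the replicate number as a block it was 3, SLC7A5, SLC1A5 and DDIT4, at unchanged differences of 0.38, 0.35 and 0.27. The labels do not say that a number marks a shared experiment. Deviations of same-numbered arrays from their group means correlated at 0.103, and with 2 arrays a group both numbers give the same value. Over all genes the 10 calls became 5 with no filter, 28 after quantile normalization, 99 after median centring, 38 after cyclic loess, 4 without an intensity trend, 18 with robust estimation, 165 with the block, 6 with all probe sets of a gene averaged, 4 with the spread estimated over all probe sets, and 4 to 19 with 1 array left out. The causes were not tested. The median difference of the members, 0.0028, was 0.050 after quantile normalization, 0.046 after cyclic loess, 0.023 without _x_at and _s_at probe sets and -0.011 to 0.022 with 1 array left out. Over the alternatives other than leaving out an array, role medians lay between -0.049 and 0.032 for the regulators, -0.016 and 0.071 for the feedback and stress targets, 0.11 and 0.17 for the secreted proteins, 0.017 and 0.082 for the serine group, -0.057 and 0.042 for the other enzymes, -0.0047 and 0.076 for the transporters and -0.034 and 0.016 for the tRNA synthetases. With 1 array left out they lay between -0.060 and -0.0043, -0.017 and 0.039, 0.067 and 0.10, 0.029 and 0.057, -0.10 and 0.017, 0.023 and 0.065, and -0.080 and 0.0042, in the same order of roles. Differences near 0 changed sign: PHGDH to 0.035 and 0.034 after quantile normalization and cyclic loess, PSAT1 to -0.011 and SLC7A11 to -4.45e-05 after median centring, and SLC7A11 to -0.0047 with its probe sets averaged. With 1 array left out ranges crossed 0 for ATF4 (-0.013 to 0.093), PHGDH (-0.065 to 0.042), PSAT1 (-0.042 to 0.048), SLC7A11 (-0.015 to 0.043) and KLHL24 (-0.20 to 0.027), where the lone array of a group was assumed to vary like the other group. Of 26 genes given by array, 21 kept their sign under every alternative run.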
